A study of Mus musculus with 9 samples.

Results

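RNA sequencing compared neonatal mouse cardiac fibroblasts that received the MGT virus together with TMP269 and fibroblasts that received the MGT virus alone. The comparison used 6 of the 9 libraries of the series, namely the 3 labelled MGT+TMP269 and the 3 labelled MGT, and every gene symbol in the table of expression values. Cells of all groups were wild type (WT), were infected 24 h after seeding in medium with polybrene and were collected at day 14. The MGT virus delivers Mef2c, Gata4 and Tbx5, TMP269 was present or absent in the medium over the weeks of induction, and a DsRed virus served as the negative control. The labels describe TMP269 as an HDAC4 inhibitor. The 3 DsRed libraries entered no test and are given as the background level of a gene.

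Mef2c, Gata4 and Tbx5 are transcription factors of the developing heart, and their forced expression moves a fraction of cultured fibroblasts toward a cardiomyocyte-like state. Class IIa histone deacetylases (HDAC4, HDAC5, HDAC7 and HDAC9) bind MEF2 factors and hold MEF2 target genes down, and signals that send these deacetylases out of the nucleus release the targets. TMP269 is a small molecule that binds in the catalytic pocket of class IIa enzymes. In a heart, cardiac fibroblasts make collagen and other matrix, cardiomyocytes make the sarcomere, and resident macrophages make complement and chemokines.

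Expression is given in TPM, a relative abundance corrected for transcript length, so that levels may be set side by side between genes. The labels number the replicates as biological but name no culture or animal, so p-values measure the spread between these libraries. Of 34779 named genes, 13193 had a mean of at least 1 TPM over the 6 libraries. They were tested on log2(TPM + 1) with limma, a linear model that draws each gene's variance toward a trend shared across genes. A gene is called higher or lower at a Benjamini-Hochberg adjusted p under 0.05, and "rose" and "fell" below refer to such calls in MGT+TMP269 relative to MGT. A log2 difference is followed by its standard error and a mean TPM by its SD over 3 libraries. The log2 difference understates the change of genes near 1 TPM. A fold is a ratio of mean TPM and is given where both means were at least 1 TPM. The 12 largest rises and falls named below are those of called genes with at least 10 TPM in the higher group and no overlap between the groups, predicted genes left out. With TMP269, 2868 genes rose (21.7% of those tested) and 1643 fell (12.5%), shares against which the counts of each gene list below are to be read. All 3 MGT+TMP269 libraries lay above all 3 MGT libraries for 4353 genes (33%), and below all of them for 2183 genes (16.5%). The falls were larger: 598 of the genes that fell changed by at least 2-fold on that scale, against 208 of the genes that rose. The first principal component of the 6 libraries held 57.1% of the variance and separated the groups, and libraries of the same group correlated at r of 0.977 to 0.978 with TMP269 and 0.978 to 0.981 in MGT alone. The median gene differed by 0.11 (log2), a value that another scaling of the libraries, by median ratios, brought to 0.0078, so small rises depend on the scaling. With that scaling, 1661 genes rose and 2100 fell, and with quantile scaling 2153 rose and 1774 fell. DsRed replicate 2 stood apart, with an upper quartile of 5.38 TPM against 8.69 to 9.57 TPM in the other 8 libraries. It entered no test here. When the spread was estimated over all 9 libraries, 1267 genes were called, and leaving that DsRed library out brought the count to 4077. Calls that this 9-library fit ended are named beside the genes.

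**Figure D1:**
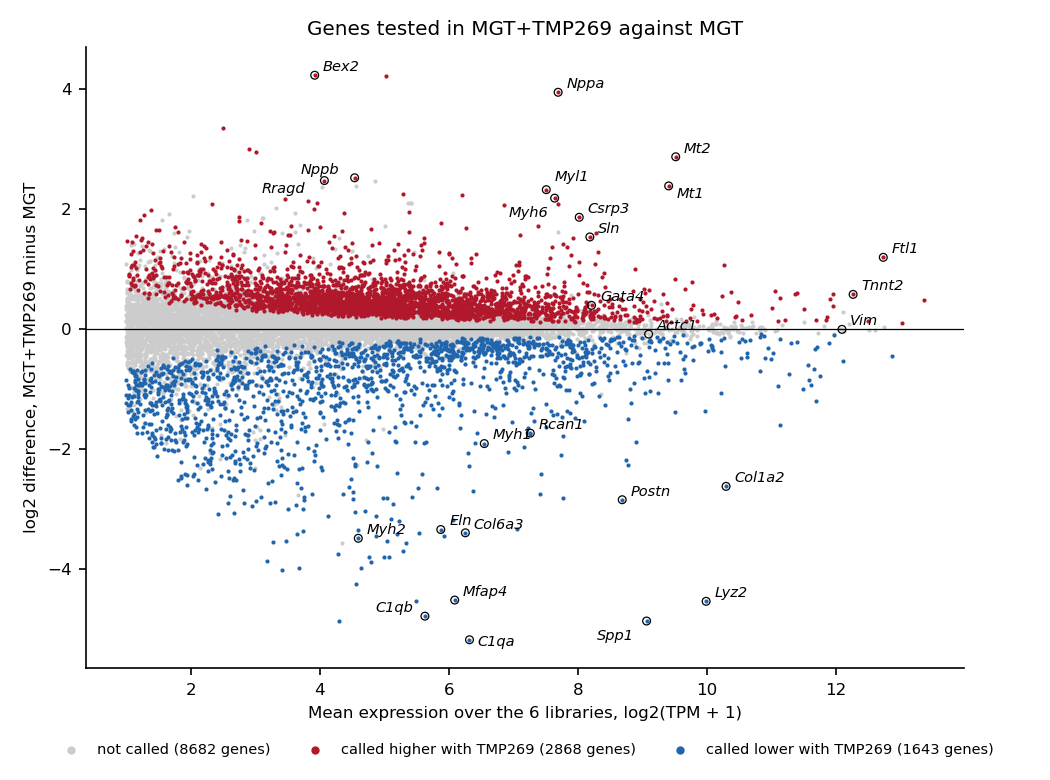
Points are the 13193 genes tested, each with its mean expression over the 6 libraries on the horizontal axis, log2(TPM + 1), and its log2 difference, MGT+TMP269 minus MGT, on the vertical axis. Red points are the 2868 genes called higher with TMP269, blue points the 1643 called lower and grey points those not called. Circled genes are described in the text. The blue points reach further from 0 than the red points.

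Of the delivered factors, Gata4 rose slightly (0 called in the 9-library fit) and Mef2c and Tbx5 were not called. Mef2c had 611, 701 and 730.2 TPM with TMP269, against 691, 599 and 654 TPM in MGT alone, with 7.64, 34.2 and 7.54 TPM in DsRed cells, and the libraries of the 2 groups overlapped (log2 difference 0.069 ± 0.08, adjusted p = 0.542). Tbx5 had 399.9, 407 and 447 TPM with TMP269, against 389, 372 and 386 TPM in MGT alone, and was not called (log2 difference 0.13 ± 0.05, adjusted p = 0.0951). Gata4 rose 1.31-fold, with 340.0, 324 and 344 TPM with TMP269, against 270.1, 235 and 263 TPM in MGT alone (log2 difference 0.39 ± 0.06, adjusted p = 0.00322). The table does not tell transcripts of the virus from those of the cells' own genes. Of the class IIa enzymes that TMP269 binds, 3 of 4 rose at the RNA level. Hdac5 had 135, 132 and 140.4 TPM with TMP269, against 60.8, 79.4 and 79.9 TPM in MGT alone (log2 difference 0.89 ± 0.11, adjusted p = 0.00128). Hdac7 averaged 43.5 ± 4.58 TPM with TMP269 and 29.5 ± 2.54 TPM in MGT alone, a 1.47-fold rise, and Hdac9 averaged 8.77 ± 0.333 TPM with TMP269 and 5.49 ± 0.471 TPM in MGT alone, a 1.6-fold rise. Hdac4, the enzyme named in the labels, had 10.5, 10.3 and 9.64 TPM with TMP269, against 10.2, 9.56 and 13.6 TPM in MGT alone, with overlapping libraries (log2 difference -0.11 ± 0.14, adjusted p = 0.586). Among 11 other deacetylases and corepressor subunits (0 called in the 9-library fit), Hdac10 rose 1.54-fold and Sin3a 1.53-fold, and 9 were not called (1 of them fell under either rescaling), and Hdac3, the catalytic partner of the class IIa proteins in corepressor complexes, averaged 42.7 ± 0.249 TPM with TMP269 and 41.7 ± 1.19 TPM in MGT alone (log2 difference 0.035 ± 0.052, adjusted p = 0.645). In the fit of all 9 libraries, Gata4, Hdac10, Hdac9 and Sin3a did not pass the threshold.

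The natriuretic peptides were among the genes that rose most. Nppa encodes atrial natriuretic peptide, a hormone of atrial and fetal cardiomyocytes that lowers blood pressure, and Nppb encodes its ventricular relative, B-type natriuretic peptide. The genes are neighbours on chromosome 4, with starts 14.8 kb apart, and their promoters are shown because both rose together. The 250 bases before each start were taken from RefSeq (build GRCm38.p6), 5′ to 3′ on the plus strand, Nppa at chr4:148000472-148000721 and Nppb at chr4:147985650-147985899. Capitals mark the letters AGATAA or TGATAA, the core that GATA factors recognise, searched on both strands (TTATCT or TTATCA as read here).
Nppa: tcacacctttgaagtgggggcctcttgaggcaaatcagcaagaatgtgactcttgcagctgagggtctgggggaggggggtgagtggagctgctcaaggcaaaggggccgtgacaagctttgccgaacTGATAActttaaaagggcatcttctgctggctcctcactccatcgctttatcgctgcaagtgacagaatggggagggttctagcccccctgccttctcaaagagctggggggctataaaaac
Nppb: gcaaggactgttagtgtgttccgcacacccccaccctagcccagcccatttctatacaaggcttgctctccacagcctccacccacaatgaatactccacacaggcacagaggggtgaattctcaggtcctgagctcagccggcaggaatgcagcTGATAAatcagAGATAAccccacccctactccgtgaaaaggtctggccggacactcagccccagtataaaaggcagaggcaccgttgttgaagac
The Nppa window held 1 match and the Nppb window 2, and 16.6% of the 32851 promoters of that length in the set held at least 1 match. A pattern for the MEF2 core, CTA and TAG with any 4 bases between them, had 0 matches in either window. This pattern occurs in 3.2% of the promoters. Other forms of the MEF2 core were not searched, so neither value is a count of MEF2 sites. For the metal response (TGCACNC or TGCGCNC), E-box (CACGTG) and antioxidant response (TGACNNNGC) cores, 0 matches were found. A match describes letters and is no evidence of binding, and no match says only that these letters are not in the window.

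Nppa had 362, 366 and 437 TPM with TMP269, against 24.2, 23.5 and 25.1 TPM in MGT alone, a 16-fold rise (log2 difference 3.94 ± 0.081, adjusted p = 1.62e-06). The 3 DsRed libraries had 1.55, 39 and 9.49 TPM, and every MGT+TMP269 library lay far above them. The MGT libraries lay above DsRed replicates 1 and 3 and below DsRed replicate 2, the library that stood apart. Of the 31-base words in annotated Nppa transcripts, searched on both strands, 56.8% also occur in transcripts of another gene, Gm13054. Use of strand in the counting is not given in the sources used here. Nppb, which shares no such word with another gene, had 41, 32.8 and 42.2 TPM with TMP269, against 6.25, 5.73 and 5.71 TPM in MGT alone, a 6.56-fold rise (log2 difference 2.52 ± 0.11, adjusted p = 1.97e-05). Its DsRed libraries had 1.38, 1.02 and 0.958 TPM, below all libraries of the other groups. Of 6 tested genes for these peptides, their processing and their receptors, 5 rose and 0 fell (1 fell with median-ratio scaling). Corin, the protease that activates the atrial peptide, had 9.12, 10.6 and 8.43 TPM with TMP269, against 1.74, 3 and 1.42 TPM in MGT alone (log2 difference 1.79 ± 0.21, adjusted p = 0.00107). Npr2, the receptor for C-type natriuretic peptide, averaged 108 ± 9.94 TPM with TMP269 and 71.8 ± 1.84 TPM in MGT alone (log2 difference 0.58 ± 0.072, adjusted p = 0.00143). Npr3, the clearance receptor, averaged 11.8 ± 1.59 TPM with TMP269 and 7.43 ± 0.909 TPM in MGT alone (log2 difference 0.60 ± 0.13, adjusted p = 0.0148), a call that was lost without MGT+TMP269 replicate 2. Furin, a protease that cleaves the B-type precursor, was not called (72.4 ± 3.41 TPM with TMP269 and 77.1 ± 2.05 TPM in MGT alone), although median-ratio scaling called it lower. Npr3 lost the call when all 9 libraries shared the fit.

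**Figure D2:**
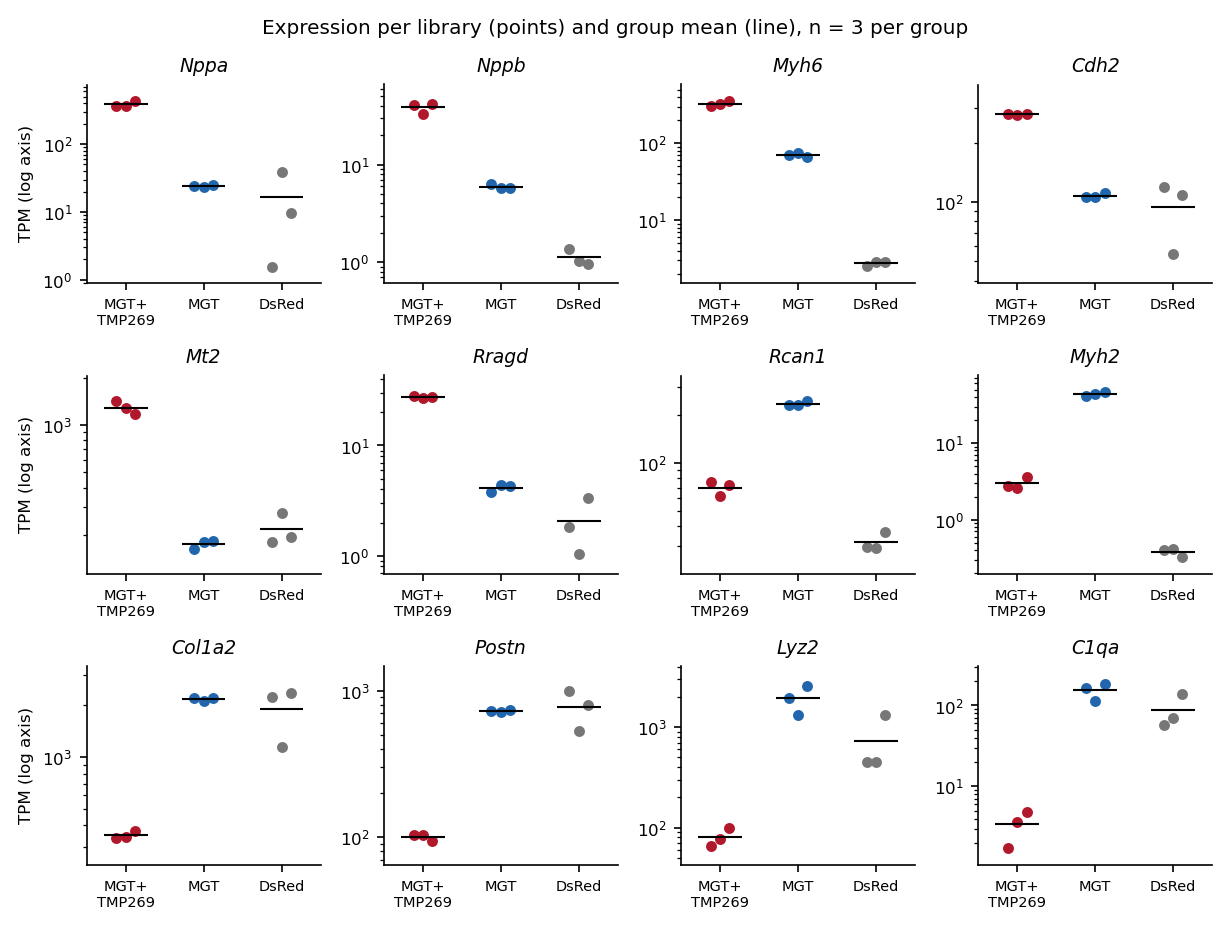
TPM on log axes for 12 genes in each library (points) and as the group mean (line), for MGT+TMP269, MGT and DsRed from left to right, 3 libraries each. In the panels of Nppa, Nppb, Myh6, Cdh2, Mt2 and Rragd all MGT+TMP269 points lie above all MGT points, and in those of Rcan1, Myh2, Col1a2, Postn, Lyz2 and C1qa they lie below them.

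Genes of the thick filament, the myosin part of the contractile lattice, rose in 7 of 10 tested cases, and 1 fell (0 in the 9-library fit, 3 under either rescaling). Their median log2 difference was 0.71, beside 0.11 for all genes tested. The skeletal heavy chains Myh1 and Myh2, which fell, are counted on the list of fast and skeletal muscle and not here. Myl1, a fast skeletal light chain that rose, is counted here. Myh6, the alpha heavy chain that predominates in adult mouse myocardium, had 303, 325 and 351 TPM with TMP269, against 71.4, 75.5 and 67 TPM in MGT alone, a 4.58-fold rise (log2 difference 2.18 ± 0.07, adjusted p = 5.73e-06). Mybpc3, the cardiac myosin binding protein that tunes cross-bridge cycling, had 86.2, 92.5 and 90.9 TPM with TMP269, against 26.7, 25.7 and 24.7 TPM in MGT alone, a 3.49-fold rise (log2 difference 1.77 ± 0.058, adjusted p = 6.03e-06). Myl7, the atrial regulatory light chain, had 1593, 1584 and 1830.3 TPM with TMP269, against 771, 866 and 746 TPM in MGT alone (log2 difference 1.07 ± 0.076, adjusted p = 0.000127). Those libraries did not overlap, and DsRed cells had 12.4 TPM of Myl7 on average. Myom2, a myomesin of the M-band that crosslinks thick filaments, averaged 638 ± 23.6 TPM with TMP269 and 403 ± 20.2 TPM in MGT alone (log2 difference 0.66 ± 0.049, adjusted p = 0.000139). Myom1, its paralogue, moved the other way and averaged 58.6 ± 2.25 TPM with TMP269 and 79.6 ± 1.74 TPM in MGT alone (log2 difference -0.44 ± 0.051, adjusted p = 0.0011). The titin gene Ttn was not called (10.5 ± 1.19 TPM with TMP269 and 12.9 ± 1.31 TPM in MGT alone, log2 difference -0.27 ± 0.12, adjusted p = 0.117), although both rescalings called it lower. Myl4, the atrial essential light chain, was the most abundant of these transcripts and was not called (5645, 5684 and 6038 TPM with TMP269, against 5719.8, 6115 and 5769 TPM in MGT alone), although both rescalings called it lower. With all 9 libraries in the fit, the adjusted p was not under 0.05 for Myom1.

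The largest rise among the myosin light chains was that of Myl1, the essential light chain of fast skeletal muscle, with 307, 303 and 298 TPM with TMP269, against 71.1, 50.6 and 59.7 TPM in MGT alone, a 5.01-fold rise (log2 difference 2.32 ± 0.11, adjusted p = 2.84e-05). Even so, Myl1 made up only 4.98% ± 0.239 of the summed TPM of the striated essential light chains with TMP269 and 1.02% ± 0.203 in MGT alone (SD, n = 3 each), and Myl4 made up nearly all of the rest.

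The leading myosin heavy chain differed between the groups. Myh6 made up 86.4% ± 0.37 of the summed sarcomeric heavy chain TPM with TMP269 and 26.5% ± 0.944 in MGT alone (SD, n = 3 each). In MGT alone the leading chain was Myh1, a fast skeletal isoform, with 10.2% ± 0.511 of the sum with TMP269 and 54.8% ± 0.471 in MGT alone. Myh2, another adult skeletal isoform, held 0.785% ± 0.0994 with TMP269 and 16.2% ± 1.21 in MGT alone. For each of these chains the shares did not overlap between the groups. The summed heavy chain TPM itself was 378 ± 26.6 with TMP269 and 269 ± 6.71 in MGT alone, against 4.61 ± 0.447 in DsRed cells. In TPM, Myh1 had 37.9, 37.5 and 39.7 TPM with TMP269, against 149, 149 and 143 TPM in MGT alone, a 3.84-fold fall (log2 difference -1.91 ± 0.048, adjusted p = 3.86e-06). Myh2 had 2.76, 2.58 and 3.59 TPM with TMP269, against 41, 43.5 and 45.8 TPM in MGT alone, a 14.6-fold fall (log2 difference -3.49 ± 0.12, adjusted p = 6.37e-06). Myh8, the perinatal isoform, rose, with 8.42, 9.6 and 8.91 TPM with TMP269, against 5.93, 4.71 and 4.19 TPM in MGT alone (log2 difference 0.76 ± 0.14, adjusted p = 0.00622). Myh7, the slow cardiac isoform, was under 2 TPM in every one of these libraries and was not tested. These genes share sequence, which makes the division of reads among them an estimate: 42.9% of the 31-base words in annotated Myh1 transcripts also occur in another gene (most in Myh2), and 29.2% of those of Myh6 (nearly all in Myh7).

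**Figure D3:**
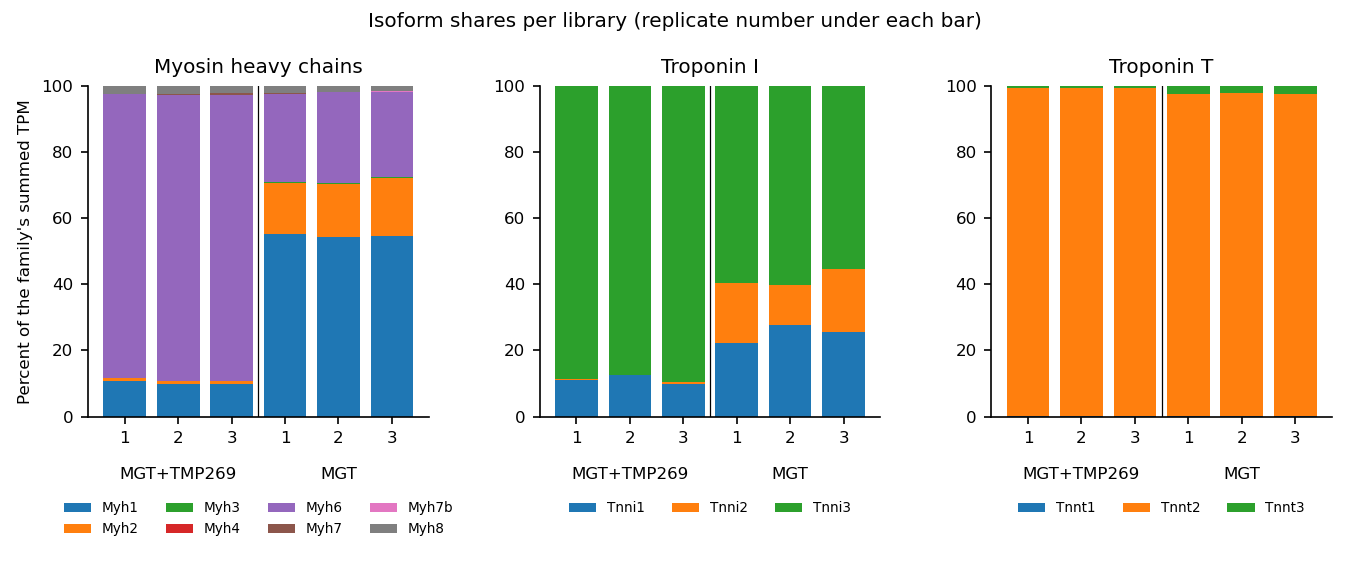
Bars show the percent of a family's summed TPM contributed by each isoform, for the sarcomeric myosin heavy chains, troponin I and troponin T, with the MGT+TMP269 libraries to the left and the MGT libraries to the right of the line (replicates 1 to 3). Myh6 takes 86.4% of the heavy chains with TMP269 and 26.5% in MGT alone, and Tnni3 takes 88.5% of troponin I with TMP269 and 58.4% in MGT alone.

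Troponin I, the inhibitory subunit that blocks contraction until calcium binds, also had a larger share of its cardiac isoform with TMP269. Tnni3, the adult cardiac form, made up 88.5% ± 1.04 of the troponin I TPM with TMP269 and 58.4% ± 2.71 in MGT alone (SD, n = 3 each). Tnni2, the fast skeletal form, made up 0.352% ± 0.323 with TMP269 and 16.4% ± 3.78 in MGT alone. The slow form, Tnni1, made up 11.2% ± 1.36 with TMP269 and 25.2% ± 2.75 in MGT alone, so the shares of both other isoforms were lower. Tnni3 itself had 77.1, 89.7 and 101 TPM with TMP269, against 35.9, 38.3 and 36.3 TPM in MGT alone, a 2.43-fold rise (log2 difference 1.25 ± 0.10, adjusted p = 0.000208). Tnni2 had 0.367, 0 and 0.718 TPM with TMP269, against 10.9, 7.69 and 12.5 TPM in MGT alone, so the transcript was nearly gone with TMP269 (log2 difference -3.07 ± 0.26, adjusted p = 0.000258). Unlike the myosins, Tnni2 shares no 31-base word with another annotated gene, and Tnni3 shares 2.62% of its words. Among troponin T genes, which anchor the complex to tropomyosin, the cardiac Tnnt2 had 5806, 5751 and 6168 TPM with TMP269, against 3841, 4243 and 3829 TPM in MGT alone (log2 difference 0.57 ± 0.048, adjusted p = 0.000256). The fast skeletal Tnnt3 had 41.4, 41.8 and 45.8 TPM with TMP269, against 90.0, 86.1 and 90.9 TPM in MGT alone, a 2.07-fold fall (log2 difference -1.03 ± 0.059, adjusted p = 5.63e-05). Of the 8 tested genes on the list of fast and skeletal muscle, 5 fell and 2 rose. The fast skeletal light chain Myl1, with its 5.01-fold rise, is counted with the thick filament and not on this list. Besides Myh1, Myh2, Tnni2 and Tnnt3, the fifth was Actn3, a skeletal actinin, whose call (log2 difference -0.38 ± 0.10, adjusted p = 0.0315) was lost without any 1 library except MGT+TMP269 replicate 1. The second riser beside Myh8 was Mybpc2 (log2 difference 0.87 ± 0.22, adjusted p = 0.024), whose call was lost without any of the MGT+TMP269 libraries or without MGT replicate 1. Myogenic regulators were at the floor of the table: Myod1 was listed at 0 TPM in 5 of the 6 libraries, and Myog had 0, 0 and 0 TPM with TMP269, against 0.144, 0.266 and 0.413 TPM in MGT alone. The fit of all 9 libraries did not call Actn3.

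Genes of the thin filament and the Z-disc were called in both directions. Of 14 tested thin filament genes, 3 rose, a share near the background, and 5 fell (median log2 difference -0.15). Of 17 Z-disc and costamere genes, 7 rose and 5 fell (median 0.16). The 9-library fit called 2 thin filament genes lower, and 3 Z-disc genes higher and 2 lower. Tpm2, the beta tropomyosin, had 404, 380.0 and 391 TPM with TMP269, against 803, 841 and 825 TPM in MGT alone, a 2.1-fold fall (log2 difference -1.07 ± 0.036, adjusted p = 6.37e-06). Nebl, the cardiac nebulette, and Neb, the skeletal nebulin, fell 3.23-fold and 2.18-fold. Tmod1, which caps the pointed end of actin filaments, had 7.59, 18.1 and 10.6 TPM with TMP269, against 4.73, 1.75 and 2.07 TPM in MGT alone (log2 difference 1.77 ± 0.38, adjusted p = 0.0121). Tnnc1, the calcium sensor subunit, averaged 169 ± 1.46 TPM with TMP269 and 205 ± 11.6 TPM in MGT alone, a small fall (log2 difference -0.28 ± 0.05, adjusted p = 0.00637) that also missed the threshold in the fit of 8 libraries. The sarcomeric actins were not called, Actc1 at 531 ± 54.2 TPM with TMP269 and 563 ± 31.8 TPM in MGT alone and Acta1 at 109 ± 4.8 TPM with TMP269 and 116 ± 9.37 TPM in MGT alone, with overlapping libraries. Csrp3, a Z-disc protein that senses stretch in cardiomyocytes, had 410.4, 395 and 415 TPM with TMP269, against 112, 119 and 104 TPM in MGT alone, a 3.65-fold rise (log2 difference 1.86 ± 0.055, adjusted p = 4.93e-06). Actn2, the sarcomeric alpha-actinin that anchors actin at the Z-disc, had 29.1, 33.3 and 33.4 TPM with TMP269, against 11.4, 13.7 and 9.03 TPM in MGT alone (log2 difference 1.43 ± 0.15, adjusted p = 0.000609). Ldb3, a PDZ protein that binds alpha-actinin, had 162, 159 and 173 TPM with TMP269, against 93.5, 82.7 and 88.6 TPM in MGT alone (log2 difference 0.89 ± 0.061, adjusted p = 0.000109). For each of these 3 genes every MGT+TMP269 library exceeded every MGT library. The Ldb3 relative Pdlim3 moved the opposite way and had 155, 136 and 146 TPM with TMP269, against 252, 269.9 and 250.2 TPM in MGT alone (log2 difference -0.82 ± 0.06, adjusted p = 0.00014). Smpx, a small protein of costameres, averaged 167 ± 14.9 TPM with TMP269 and 106 ± 7.59 TPM in MGT alone. Des, the muscle intermediate filament, fell slightly to 969.6 ± 3.81 TPM with TMP269, against 1166 ± 34.7 TPM in MGT alone. The count of Z-disc genes that fell was 3 without MGT+TMP269 replicate 2, MGT+TMP269 replicate 3 or MGT replicate 2. Sharing the spread over all 9 libraries ended the call of Des, Neb, Smpx and Tnnc1.

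Genes of calcium release and reuptake by the sarcoplasmic reticulum rose in 11 of 20 tested cases and fell in 3 (3 and 1 in the 9-library fit, median log2 difference 0.36). Atp2a2, the SERCA pump that refills the store, had 588, 632 and 669 TPM with TMP269, against 323, 308 and 311 TPM in MGT alone, a 2-fold rise (log2 difference 1.00 ± 0.053, adjusted p = 4.04e-05). Ryr2, the cardiac release channel, had 27.5, 29.8 and 32.9 TPM with TMP269, against 10.8, 12.3 and 11.2 TPM in MGT alone (log2 difference 1.32 ± 0.092, adjusted p = 0.000114). Sln, sarcolipin, which inhibits the pump in atrial muscle, had 419.7, 429.9 and 448 TPM with TMP269, against 150.5, 154 and 143 TPM in MGT alone (log2 difference 1.53 ± 0.045, adjusted p = 4.62e-06). All 3 genes had each MGT+TMP269 library above each MGT library. Pln, phospholamban, the ventricular counterpart of sarcolipin, was low in both groups and not called (1.98 ± 0.973 TPM with TMP269 and 2.73 ± 0.19 TPM in MGT alone). Trdn, which links the release channel to the calcium buffer, and Casq2, that buffer in cardiac muscle, rose 1.98-fold and 1.39-fold. Casq1, the skeletal buffer, went the other way with 2.86, 3.68 and 3.94 TPM with TMP269, against 8.61, 6.39 and 8.53 TPM in MGT alone (log2 difference -0.97 ± 0.16, adjusted p = 0.00441). Jph1 and Jph2, which hold the reticulum against the surface membrane, rose 1.9-fold and 1.38-fold. The pore subunit of the L-type calcium channel, Cacna1c, was not called (log2 difference -0.23 ± 0.16, adjusted p = 0.29), and its accessory subunit Cacna2d1 fell to 21.6 ± 1.71 TPM with TMP269, against 29.7 ± 1.09 TPM in MGT alone. The call did not hold in the 9-library fit for Atp2a2, Cacna2d1, Casq2, Jph2 and Trdn.

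Of 9 tested potassium, sodium and pacemaker channel genes, 3 rose and 1 fell. Kcnj5, a subunit of the acetylcholine-gated atrial potassium channel, had 11.2, 13.5 and 13.4 TPM with TMP269, against 4.28, 4.44 and 4.21 TPM in MGT alone (log2 difference 1.37 ± 0.11, adjusted p = 0.000193). Hcn4, the main pacemaker channel of the sinoatrial node, had 2.2, 2.26 and 2.84 TPM with TMP269, against 0.205, 0.291 and 0.199 TPM in MGT alone (log2 difference 1.47 ± 0.18, adjusted p = 0.00144), so that its presence above 2 TPM was limited to the TMP269 libraries among these 6. Hcn2, a related channel, averaged 5.99 ± 0.896 TPM with TMP269 and 2.86 ± 0.263 TPM in MGT alone (log2 difference 0.85 ± 0.14, adjusted p = 0.00446). The 1 fall, of the T-type calcium channel gene Cacna1g (log2 difference -1.03 ± 0.26, adjusted p = 0.0245), was lost without MGT+TMP269 replicate 1 or 3 or without MGT replicate 2, and no channel of the list fell without MGT replicate 3.

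Genes of the intercalated disc, the junction between cardiomyocytes, rose in 7 of 11 tested cases (in 1, Cdh2, in the 9-library fit) and 0 fell. Cdh2, N-cadherin, the adhesion molecule of the disc, had 281, 279 and 281 TPM with TMP269, against 107, 106 and 111 TPM in MGT alone, a 2.59-fold rise (log2 difference 1.37 ± 0.038, adjusted p = 3.96e-06). The DsRed libraries had 119, 54.8 and 109 TPM, and every MGT+TMP269 library lay above them. The lowest of these values is that of DsRed replicate 2, and without it only MGT replicate 3 lay within the range of the control. Gja1, connexin 43 of the ventricular gap junction, had 84.1, 82.8 and 89.1 TPM with TMP269, against 56.9, 62.2 and 59.4 TPM in MGT alone (log2 difference 0.51 ± 0.056, adjusted p = 0.000833). Ctnna1 and Vcl, which couple cadherins to actin, rose 1.5-fold and 1.4-fold. The desmosome genes were split between Pkp2, plakophilin 2, which rose 1.37-fold, and Dsp, desmoplakin, which was not called (58.1 ± 6.92 TPM with TMP269 and 51.6 ± 1.49 TPM in MGT alone, log2 difference 0.16 ± 0.091, adjusted p = 0.217) but was called higher without MGT+TMP269 replicate 1. In the fit of all 9 libraries, Ctnna1, Gja1, Pkp2 and Vcl did not pass the threshold.

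On a list of genes known to answer to MEF2 and class IIa deacetylases, 3 of 11 tested rose and 4 fell. The median log2 difference was -0.055. The list is a selection: Nppa, Nppb, Myh6 and Csrp3, which rose, are counted on other lists and not on this one. The count therefore depends on how genes were assigned to lists. Rcan1, a calcineurin inhibitor and a target of the calcineurin pathway, had 75.7, 62.3 and 72.3 TPM with TMP269, against 232, 231 and 244 TPM in MGT alone, a 3.36-fold fall (log2 difference -1.74 ± 0.077, adjusted p = 1.97e-05). The DsRed libraries had 29.5, 29.1 and 36.6 TPM, so Rcan1 with TMP269 lay between the MGT and the DsRed level. Xirp2, an actin-binding protein of the disc and a MEF2 target, had 6.81, 6.73 and 6.67 TPM with TMP269, against 14.2, 12.5 and 13.2 TPM in MGT alone (log2 difference -0.88 ± 0.087, adjusted p = 0.000531). Nr4a3, an orphan nuclear receptor, had 2.28, 1.97 and 2.25 TPM with TMP269, against 4.85, 4.65 and 5.81 TPM in MGT alone (log2 difference -0.94 ± 0.14, adjusted p = 0.00258). On the rising side, Slc2a4, the insulin-responsive glucose transporter GLUT4, had 1.73, 2.46 and 2.01 TPM with TMP269, against 0.201, 0.269 and 0.251 TPM in MGT alone (log2 difference 1.301 ± 0.19, adjusted p = 0.00286). Klf4, a transcription factor of differentiation programs, had 40.8, 36.6 and 36.6 TPM with TMP269, against 15.6, 13.6 and 21.7 TPM in MGT alone (log2 difference 1.15 ± 0.16, adjusted p = 0.00235). The call of Hrc (lower, log2 difference -0.89 ± 0.21, adjusted p = 0.0174) was lost without MGT+TMP269 replicate 3 or MGT replicate 1 or 2, and that of Klf2 (higher, log2 difference 0.57 ± 0.14, adjusted p = 0.0206) without MGT+TMP269 replicate 1 or 2 or MGT replicate 2. Only 1 gene of the list rose without MGT+TMP269 replicate 2. Hrc and Klf2 lost the call when all 9 libraries shared the fit.

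On the list of cardiac transcription regulators, which leaves out the delivered factors, 8 of 14 tested genes rose (3 in the 9-library fit) and 1 fell. Tbx18, a T-box factor of the epicardium and of the sinus node, had 79.4, 73.6 and 80.2 TPM with TMP269, against 45.1, 46.1 and 45.4 TPM in MGT alone (log2 difference 0.76 ± 0.054, adjusted p = 0.000123). Popdc2 is on the list but encodes a membrane protein of pacemaker and other cardiac cells. It had 39.7, 40.3 and 46.5 TPM with TMP269, against 24.4, 25.3 and 26.7 TPM in MGT alone (log2 difference 0.70 ± 0.081, adjusted p = 0.00104). Mef2d, Gata6 and Meis1, relatives or partners of the delivered factors, rose 1.48-fold, 1.39-fold and 1.49-fold. Smarcd3, the cardiac subunit of the BAF chromatin complex, had 103, 103 and 103 TPM with TMP269, against 149, 140.2 and 133 TPM in MGT alone and was the 1 that fell (log2 difference -0.44 ± 0.051, adjusted p = 0.00102). Ankrd1, a MEF2 and GATA4 responsive gene at a high level, did not differ beyond its spread (4181, 4135 and 4450.2 TPM with TMP269, against 4164, 4460.1 and 4218 TPM in MGT alone). The number of rising regulators was 5 without MGT+TMP269 replicate 3 or MGT replicate 1, and 2 fell without MGT replicate 1 or 2. With all 9 libraries in the fit, the adjusted p was not under 0.05 for Gata6, Mef2d and Meis1.

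The collagens fell almost throughout. Of 19 tested collagen genes, 15 fell and 1 rose (0 in the 9-library fit), with a median log2 difference of -1.37. Col1a2, the alpha-2 chain of type I collagen, had 337, 345 and 371 TPM with TMP269, against 2189.7, 2111 and 2206 TPM in MGT alone, a 6.18-fold fall (log2 difference -2.63 ± 0.043, adjusted p = 7.11e-07). Col1a1, the alpha-1 chain, had 1089, 1111 and 1132 TPM with TMP269, against 3572, 3187 and 3409.6 TPM in MGT alone, a 3.05-fold fall (log2 difference -1.61 ± 0.044, adjusted p = 3.96e-06). The chains are assembled together in type I collagen, and the ratio of Col1a1 to Col1a2 TPM was 3.17 ± 0.101 with TMP269 and 1.56 ± 0.0626 in MGT alone, against 1.41 ± 0.0725 in DsRed cells (SD, n = 3 each). Col3a1, the collagen that accompanies type I in stroma, had 172, 200.4 and 237 TPM with TMP269, against 803, 667 and 791 TPM in MGT alone (log2 difference -1.89 ± 0.12, adjusted p = 9.26e-05). Col6a3, a chain of the beaded filaments around cells, had 13.1, 11.6 and 12.1 TPM with TMP269, against 140.4, 146 and 131 TPM in MGT alone, an 11.3-fold fall (log2 difference -3.40 ± 0.069, adjusted p = 1.62e-06), and with TMP269 it lay below the DsRed mean of 27 TPM. Col6a1 and Col6a2 of the same filament fell 3.08-fold and 2.72-fold. Col11a1, a nucleator of fibrils, had 27.9, 23.3 and 26.8 TPM with TMP269, against 131, 126 and 135 TPM in MGT alone (log2 difference -2.29 ± 0.077, adjusted p = 6.37e-06). The groups did not overlap for any of these collagens. Col8a1, a short-chain network collagen, fell 3.15-fold. The basement membrane collagens Col4a1 and Col4a2 were not called (1394 ± 104 TPM with TMP269 and 1369 ± 53 TPM in MGT alone for Col4a1, 781 ± 20.1 TPM with TMP269 and 821 ± 44.1 TPM in MGT alone for Col4a2), although median-ratio scaling called Col4a2 lower. Col14a1, which binds the surface of fibrils, was the 1 that rose (log2 difference 0.53 ± 0.093, adjusted p = 0.00566). Summed over the 19 genes, collagen TPM was 4919 to 5166 in the MGT+TMP269 libraries and 10630.1 to 11317 in the MGT libraries, against 7175 to 14824 in DsRed. The lowest DsRed sum is that of replicate 2, and the others, 13708.5 and 14824, lay above all MGT libraries. The fit of all 9 libraries did not call Col14a1.

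Of 18 tested genes of elastic fibres and collagen crosslinking, 16 fell and 1 rose (10 and 0 in the 9-library fit). Mfap4, a microfibril glycoprotein, had 4.23, 4.35 and 5.51 TPM with TMP269, against 116, 149.5 and 123 TPM in MGT alone, a 27.6-fold fall, among the 12 largest (log2 difference -4.52 ± 0.13, adjusted p = 4.14e-06). Eln, elastin, had 8.42, 9.73 and 10.5 TPM with TMP269, against 104, 102 and 112 TPM in MGT alone, an 11.1-fold fall (log2 difference -3.34 ± 0.09, adjusted p = 3.96e-06). Their DsRed means were 217 and 519.6 TPM, so both were already lower in MGT alone and lower again with TMP269. Serpinh1, the chaperone of procollagen folding, averaged 1361 ± 9.05 TPM with TMP269 and 1799 ± 28.3 TPM in MGT alone (log2 difference -0.40 ± 0.024, adjusted p = 7e-05). Loxl1 and Emilin1, of elastic fibre assembly, fell 1.82-fold and 2-fold. Fbln2, fibulin 2, rose to 960.2 ± 16.7 TPM with TMP269, against 763 ± 23.7 TPM in MGT alone. Of 8 small leucine-rich proteoglycans, which bind collagen fibrils and growth factors, 5 fell and 1 rose (0 in the 9-library fit). Aspn, asporin, had 2.73, 2.61 and 2.51 TPM with TMP269, against 45.2, 52.3 and 50.8 TPM in MGT alone, an 18.9-fold fall (log2 difference -3.80 ± 0.088, adjusted p = 2.79e-06). Fmod, fibromodulin, fell 7.62-fold, Dcn, decorin, 2.34-fold and Bgn, biglycan, 1.9-fold. Prelp was the 1 that rose, and Ogn was not called (245 ± 17.7 TPM with TMP269 and 188 ± 7.22 TPM in MGT alone for Prelp, 75.4 ± 2.98 TPM with TMP269 and 76.9 ± 0.9 TPM in MGT alone for Ogn). Sharing the spread over all 9 libraries ended the call of Fbln2 and Prelp.

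Matricellular proteins, which signal from the matrix without building it, fell in 12 of 14 tested cases (6 in the 9-library fit) and rose in 1. Postn, periostin, a marker of activated fibroblasts, had 102, 103 and 94.2 TPM with TMP269, against 723, 713 and 737 TPM in MGT alone, a 7.26-fold fall (log2 difference -2.85 ± 0.045, adjusted p = 7.11e-07). The DsRed libraries had 999, 530.3 and 800.3 TPM, and the MGT+TMP269 libraries lay far below all of them. Cthrc1, a secreted protein of injury-activated fibroblasts, had 78.9, 84 and 75.9 TPM with TMP269, against 353, 360.1 and 328 TPM in MGT alone (log2 difference -2.11 ± 0.057, adjusted p = 3.96e-06). Fn1, fibronectin, and Sparc, a collagen chaperone outside the cell, fell 1.68-fold and 1.37-fold. Cyr61, a target of the YAP and SRF pathways, was the 1 that rose (1012, 994 and 999 TPM with TMP269, against 756, 752 and 776 TPM in MGT alone, log2 difference 0.40 ± 0.027, adjusted p = 0.000111), and its relative Ctgf fell to 2887 ± 48 TPM with TMP269, against 3641 ± 105 TPM in MGT alone. Of 14 matrix proteases and inhibitors, 9 fell and 2 rose. Timp3, an inhibitor held in the matrix, had 212, 224 and 254 TPM with TMP269, against 644, 638 and 668 TPM in MGT alone (log2 difference -1.50 ± 0.067, adjusted p = 2e-05), and Timp1, a soluble inhibitor, fell 2.36-fold. Mmp2, the gelatinase of fibroblasts, had 57.6, 64.6 and 67.8 TPM with TMP269, against 198, 189 and 174 TPM in MGT alone (log2 difference -1.55 ± 0.078, adjusted p = 3.24e-05). Both were lower in all 3 MGT+TMP269 libraries. Mmp11 rose, with 47.2, 42.2 and 34.3 TPM with TMP269, against 10.3, 15.1 and 11.5 TPM in MGT alone (log2 difference 1.67 ± 0.17, adjusted p = 0.000542), and so did the aggrecanase Adamts5 (1.71-fold). Acan, aggrecan itself, had 2, 2.67 and 2.95 TPM with TMP269, against 49.9, 48.8 and 53.6 TPM in MGT alone, among the 12 largest falls (log2 difference -3.88 ± 0.12, adjusted p = 5.19e-06). The chaperones of the endoplasmic reticulum, where matrix proteins fold, fell in 7 of 12 tested cases (2 in the 9-library fit) and rose in none. Pdia6 fell 1.46-fold and Manf 1.48-fold, while the stress factor Xbp1 was not called (125 ± 3.79 TPM with TMP269 and 132 ± 10.1 TPM in MGT alone). The call did not hold in the 9-library fit for Ctgf.

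Markers of the cardiac fibroblast fell in 13 of 16 tested cases (8 in the 9-library fit) and rose in 1. Tbx18 was the 1 that rose, and it is also on the lists of cardiac transcription regulators and of epicardial and mesothelial markers. Vim, vimentin, a filament protein of all mesenchymal cells, had 4274, 4458 and 4374 TPM with TMP269, against 4479.5, 4409 and 4299 TPM in MGT alone and was not called (log2 difference -0.0089 ± 0.026, adjusted p = 0.823), although median-ratio scaling called it lower. Tcf21, a transcription factor of cardiac fibroblasts, had 133, 129 and 135 TPM with TMP269, against 169, 208 and 169 TPM in MGT alone (log2 difference -0.45 ± 0.084, adjusted p = 0.00742). Dpep1, a surface dipeptidase, and Dpt, dermatopontin, fell 5.26-fold and 8.46-fold. S100a4, a calcium-binding protein of motile mesenchymal cells, had 738, 714 and 851 TPM with TMP269, against 1647, 1642 and 1536 TPM in MGT alone (log2 difference -1.07 ± 0.069, adjusted p = 8.67e-05). Pdgfra, the receptor that defines cardiac fibroblasts, averaged 4.04 ± 0.647 TPM with TMP269 and 8.63 ± 0.775 TPM in MGT alone, against 27.3 TPM in DsRed cells (log2 difference -0.94 ± 0.13, adjusted p = 0.00235). Myofibroblast and TGF-beta response genes fell in 13 of 19 cases and rose in 2 (0 in the 9-library fit). Acta2, smooth muscle actin, the classic myofibroblast marker, had 2538, 2517 and 2452 TPM with TMP269, against 3986, 3973 and 3994 TPM in MGT alone (log2 difference -0.67 ± 0.023, adjusted p = 6.37e-06). Tagln, transgelin, had 1866, 1968 and 1946 TPM with TMP269, against 3879.8, 3785 and 3893 TPM in MGT alone, a 2-fold fall (log2 difference -0.9997 ± 0.029, adjusted p = 4.27e-06). Itga11, a collagen receptor of myofibroblasts, had 2.09, 1.86 and 1.93 TPM with TMP269, against 22.2, 22.3 and 23.5 TPM in MGT alone, an 11.6-fold fall (log2 difference -2.998 ± 0.091, adjusted p = 5.16e-06). All 3 were lower in every MGT+TMP269 library than in any MGT library. Ltbp2 and Cnn1 fell 6.86-fold and 6.72-fold. Smad7, a feedback inhibitor induced by TGF-beta, rose to 78.2 ± 0.85 TPM with TMP269, against 56.3 ± 2.04 TPM in MGT alone. The ligand genes Tgfb1 and Tgfb3 were not called (52.1 ± 1.6 TPM with TMP269 and 55.3 ± 3.49 TPM in MGT alone for Tgfb1, 428 ± 7.4 TPM with TMP269 and 441 ± 16.2 TPM in MGT alone for Tgfb3), although median-ratio scaling called Tgfb3 lower. Of 10 smooth muscle contractile genes, 7 fell, and Mylk, the myosin light chain kinase, was the 1 that rose (24.5, 24 and 25.7 TPM with TMP269, against 8.95, 7.59 and 8.87 TPM in MGT alone, log2 difference 1.44 ± 0.088, adjusted p = 7e-05). In the fit of all 9 libraries, Pdgfra and Smad7 did not pass the threshold.

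**Figure D4:**
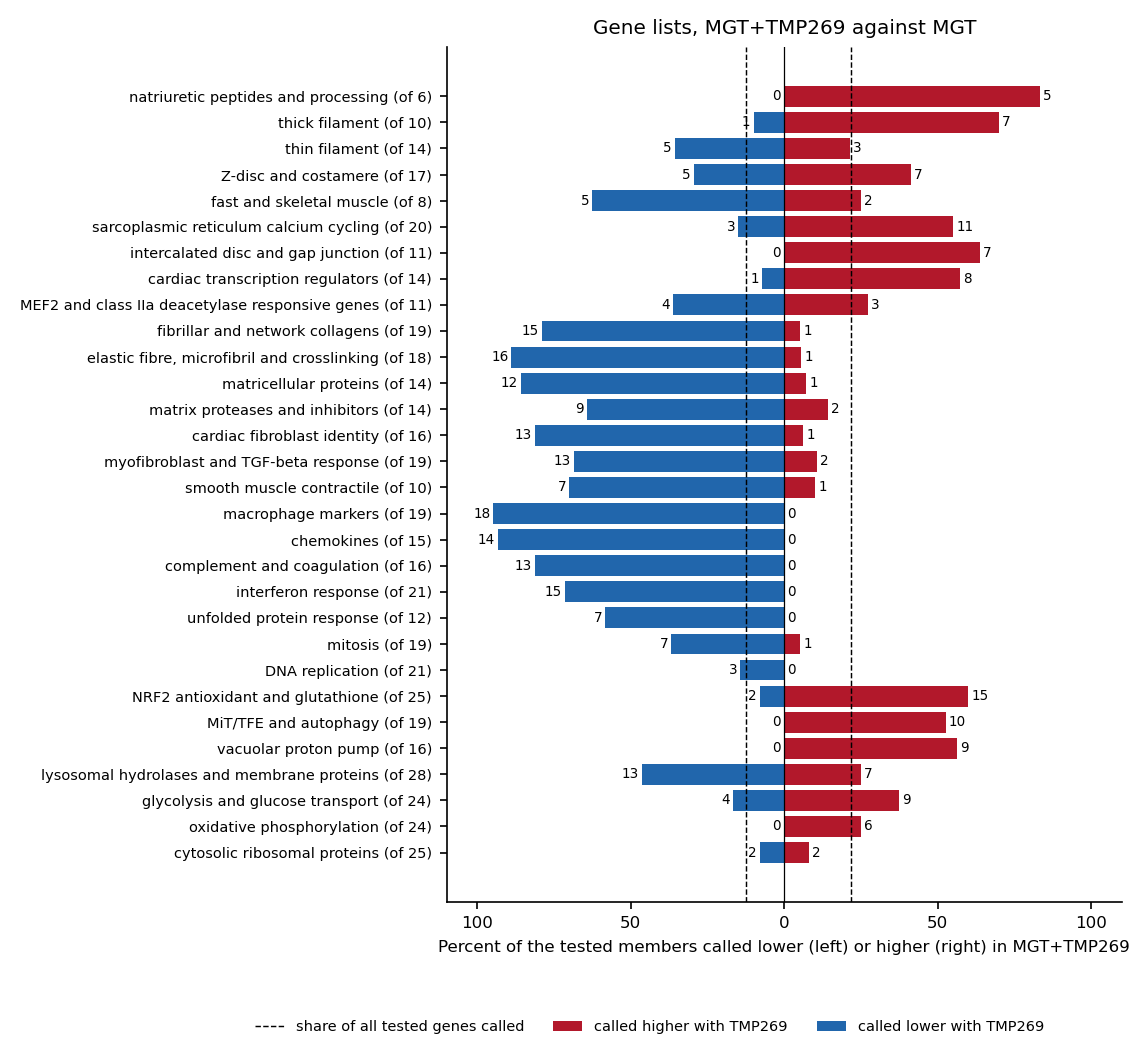
For 30 gene lists, bars show the percent of tested members called lower (left, blue) or higher (right, red) in MGT+TMP269 relative to MGT, with the number called beside each bar and the number tested in the label. Dashed lines mark the share of all tested genes called lower (12.5%) and higher (21.7%). The matrix, fibroblast, macrophage and chemokine lists extend far to the left of the line, and the natriuretic, thick filament and NRF2 lists far to the right. Myh1 and Myh2 are counted on the fast and skeletal muscle list and Myl1 on the thick filament list.

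Macrophage markers were the most strongly lowered group. Of 19 tested, 18 fell and 0 rose, with a median log2 difference of -3.42. Lyz2, lysozyme of myeloid cells, had 66.2, 77.3 and 100.1 TPM with TMP269, against 1947, 1334 and 2578 TPM in MGT alone, a 24-fold fall (log2 difference -4.54 ± 0.25, adjusted p = 4.99e-05). C1qa, a subunit of the complement initiator C1q, had 1.75, 3.59 and 4.86 TPM with TMP269, against 166, 113 and 185 TPM in MGT alone, a 45.4-fold fall and the largest of the 12 (log2 difference -5.18 ± 0.30, adjusted p = 6.16e-05). Its partners C1qb and C1qc fell 37.7-fold and 31.5-fold. Adgre1, which encodes the F4/80 antigen, had 2.63, 3.72 and 3.88 TPM with TMP269, against 69, 42.2 and 74.1 TPM in MGT alone (log2 difference -3.80 ± 0.23, adjusted p = 6.85e-05). Csf1r, the receptor that macrophages need to survive, had 4.84, 5.71 and 6.42 TPM with TMP269, against 39.6, 26.6 and 45.5 TPM in MGT alone (log2 difference -2.50 ± 0.20, adjusted p = 0.00022). For each of these genes the highest MGT+TMP269 library lay far below the lowest MGT library. The ligand of that receptor, Csf1, made by fibroblasts, moved the other way and had 628, 677 and 718 TPM with TMP269, against 509, 478 and 471 TPM in MGT alone (log2 difference 0.47 ± 0.057, adjusted p = 0.00128). Ptprc, CD45 of all white blood cells, had 0.384, 0.779 and 0.872 TPM with TMP269, against 8.74, 4.61 and 7.46 TPM in MGT alone (log2 difference -2.22 ± 0.25, adjusted p = 0.000894), and Mrc1, the mannose receptor of resident macrophages, had 0.0874, 0.289 and 0.256 TPM with TMP269, against 8.23, 3.55 and 9.93 TPM in MGT alone (log2 difference -2.68 ± 0.33, adjusted p = 0.00144). Summed over the 20 markers, TPM was 126 to 198 in the MGT+TMP269 libraries and 2067 to 3839 in the MGT libraries, an 18.8-fold difference of means, against 823 to 2263 in DsRed. Within MGT alone, replicate 2 was the lowest for 19 of the 20 genes, and Cd163, a scavenger receptor of resident macrophages, was near 0 in all 6 libraries and was not tested. In bulk RNA, fewer macrophages and less RNA of these genes per macrophage cannot be told apart. Other genes known from macrophages were among the 12 largest falls. Fcrls, an Fc receptor-like gene of microglia and other macrophages, had 0.23, 0.0521 and 0.427 TPM with TMP269, against 38.6, 21.1 and 52 TPM in MGT alone. Pld4, a nuclease of endosomes, had 0.38, 0.605 and 0.491 TPM with TMP269, against 24.7, 17.1 and 27.5 TPM in MGT alone. Alox5ap, which helps to make leukotrienes, had 0.741, 1.06 and 2.18 TPM with TMP269, against 47.4, 26.8 and 57.8 TPM in MGT alone. Spp1, osteopontin, made by macrophages and by activated fibroblasts, had 28.8, 33.3 and 35.9 TPM with TMP269, against 889, 682 and 1545 TPM in MGT alone, a 31.8-fold fall (log2 difference -4.87 ± 0.28, adjusted p = 5.73e-05). Csf1 lost the call when all 9 libraries shared the fit.

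Genes of innate immunity fell beside the macrophage markers. Of 15 tested chemokines, 14 fell and 0 rose. Ccl2, a monocyte attractant that fibroblasts also make, had 308, 330.4 and 340.5 TPM with TMP269, against 626, 604 and 594 TPM in MGT alone (log2 difference -0.90 ± 0.047, adjusted p = 3.78e-05), and its relative Ccl7 averaged 236 ± 13.3 TPM with TMP269 and 383 ± 18.3 TPM in MGT alone. Cxcl12, the stromal chemokine, had 187, 191 and 198 TPM with TMP269, against 328, 330.5 and 329 TPM in MGT alone (log2 difference -0.78 ± 0.037, adjusted p = 2.42e-05). Cxcl16 and Cx3cl1, chemokines anchored in the membrane, fell 2.81-fold and 3.58-fold. The groups did not overlap for Ccl2 or Cxcl12. Larger falls were seen for Ccl6 (3.72, 5.61 and 6.08 TPM with TMP269, against 53.8, 43.4 and 57.7 TPM in MGT alone) and for Ccl12, which had 0, 0 and 0.784 TPM with TMP269, against 19.8, 13.9 and 23.5 TPM in MGT alone. Summed chemokine TPM was 807 to 885 in the MGT+TMP269 libraries and 1699 to 1733 in the MGT libraries, a smaller ratio (2-fold) than that of the macrophage markers. Of 16 complement and coagulation genes, 13 fell and 0 rose (1 rose without MGT replicate 1). Outside C1q, Serping1, the C1 inhibitor, had 65.1, 69.8 and 71.7 TPM with TMP269, against 235, 246 and 225 TPM in MGT alone (log2 difference -1.76 ± 0.056, adjusted p = 5.73e-06) and C3, the central component, 31.9, 34.3 and 32 TPM with TMP269, against 77.3, 78.2 and 81.2 TPM in MGT alone (log2 difference -1.24 ± 0.056, adjusted p = 2e-05). The interferon response genes fell in 15 of 21 cases and rose in none. Bst2, tetherin, had 306, 245 and 353 TPM with TMP269, against 573, 600.1 and 620.3 TPM in MGT alone (log2 difference -1.001 ± 0.12, adjusted p = 0.00135) and Isg15, a ubiquitin-like modifier, 81.2, 93.4 and 145 TPM with TMP269, against 353, 252 and 251 TPM in MGT alone (log2 difference -1.44 ± 0.23, adjusted p = 0.00416). Ifi27l2a, a member of the 12 largest falls, had 2.57, 1.23 and 2.09 TPM with TMP269, against 43.4, 37.7 and 56.8 TPM in MGT alone, and its DsRed mean was 257 TPM. In the 9-library fit 5 interferon genes fell, and with the 8 libraries without DsRed replicate 2, 9 fell. Antigen presentation fell in 5 of 10 cases (3 in the 9-library fit) and rose in 0 (in 1 without MGT+TMP269 replicate 3), led by B2m, the light chain of class I molecules (2290.3, 2172 and 2129.7 TPM with TMP269, against 3859, 4097 and 3992 TPM in MGT alone, log2 difference -0.86 ± 0.037, adjusted p = 1.74e-05), and by the heavy chain gene H2-K1 (2.05-fold). The part of the macrophage markers in these results was not tested. C1qa is counted both among the macrophage markers and among the complement genes.

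Of 17 tested interleukins and acute inflammation genes, 11 fell and 3 rose (1 in the 9-library fit). Saa3, an acute phase protein, had 92.9, 86 and 113 TPM with TMP269, against 299, 341 and 379 TPM in MGT alone (log2 difference -1.79 ± 0.12, adjusted p = 0.000114). Ptgs2, the inducible cyclooxygenase, had 2.84, 4.75 and 5.67 TPM with TMP269, against 25.8, 21 and 23.8 TPM in MGT alone (log2 difference -2.21 ± 0.21, adjusted p = 0.000426). Lif, a cytokine of the interleukin 6 family, fell 2.17-fold. Il6 itself rose, with 81.4, 93.4 and 79.1 TPM with TMP269, against 48.6, 43.7 and 43.8 TPM in MGT alone (log2 difference 0.88 ± 0.081, adjusted p = 0.000377), and with TMP269 its level lay nearer to the DsRed mean of 113 TPM. Tnf, made mostly by macrophages, had 0.0895, 0.225 and 0.23 TPM with TMP269, against 2.07, 1.91 and 2.9 TPM in MGT alone (log2 difference -1.47 ± 0.21, adjusted p = 0.00229).

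**Figure D5:**
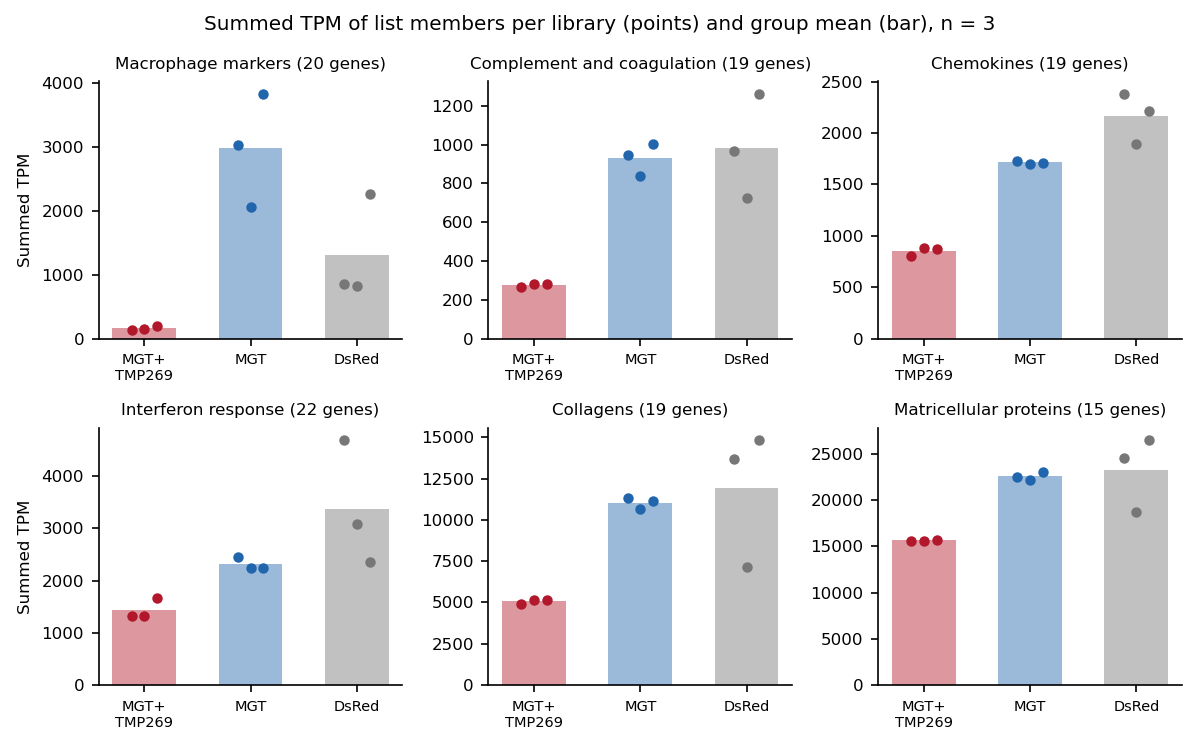
Summed TPM of the members of 6 lists per library (points) and as the group mean (bar) in MGT+TMP269, MGT and DsRed cells, 3 libraries each. In every panel all MGT+TMP269 points lie below all MGT points. The ratio of the group means is largest for the macrophage markers (126 to 198 against 2067 to 3839 TPM).

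Cell cycle genes were low in all libraries. Of 21 tested replication genes, 3 fell, a share near the background, and 0 rose, a share below it. Of 19 mitosis genes 7 fell and 1 rose. In the 9-library fit, 0 replication genes and 1 mitosis gene fell, and with median-ratio scaling 5 replication genes fell. Cdk1, the mitotic kinase, had 6.14, 5.66 and 4.46 TPM with TMP269, against 10.4, 8.72 and 9.07 TPM in MGT alone (log2 difference -0.70 ± 0.14, adjusted p = 0.00852), and Mcm6, a subunit of the replicative helicase, had 7.8, 10.5 and 9.1 TPM with TMP269, against 14.9, 14.2 and 21.2 TPM in MGT alone (log2 difference -0.79 ± 0.17, adjusted p = 0.0137). Cenpa, the centromeric histone, was the 1 that rose, with 52.6, 50.3 and 51.5 TPM with TMP269, against 32.8, 30.4 and 28.8 TPM in MGT alone (log2 difference 0.73 ± 0.066, adjusted p = 0.000344). The count of falling mitosis genes was 3 without MGT+TMP269 replicate 3 or MGT replicate 3 and 4 without MGT replicate 1 or 2. Among p53 targets and inhibitors of cyclin-dependent kinases, 7 of 19 rose and 2 fell (2 and 1 in the 9-library fit). Cdkn1a, p21, had 1181, 1159.8 and 1126 TPM with TMP269, against 989, 958 and 1007 TPM in MGT alone, a rise of 1.17-fold (log2 difference 0.23 ± 0.033, adjusted p = 0.00235). Sesn1, a sestrin induced by p53 and FOXO factors, had 27.8, 32.3 and 34 TPM with TMP269, against 15.5, 15.7 and 14.8 TPM in MGT alone (log2 difference 0.98 ± 0.09, adjusted p = 0.000378). Gdf15, a stress hormone, rose 1.67-fold, and Cdkn2c, p18, fell 1.59-fold. Only 1 gene of this list fell without MGT+TMP269 replicate 2 or 3 or without any 1 of the MGT libraries. With all 9 libraries in the fit, the adjusted p was not under 0.05 for Cdk1, Cdkn1a and Mcm6.

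The metallothionein genes Mt1 and Mt2 were among the 12 largest rises. These small proteins bind zinc and copper, and their genes respond to free zinc through the factor MTF1. Mt2 had 1426, 1277 and 1169 TPM with TMP269, against 164, 181 and 182 TPM in MGT alone, a 7.35-fold rise (log2 difference 2.87 ± 0.079, adjusted p = 3.96e-06). Mt1 had 1255, 1157 and 1011 TPM with TMP269, against 210.0, 213 and 230.0 TPM in MGT alone, a 5.25-fold rise (log2 difference 2.38 ± 0.082, adjusted p = 6.65e-06). The DsRed libraries had 182, 276 and 195 TPM of Mt2 and 162, 297 and 209 TPM of Mt1, below every MGT+TMP269 library for both. Annotated Mt1 transcripts share no 31-base word with another gene. Of those of Mt2, 58.1% occur in transcripts of other genes, nearly all in Gm45774, but none in Mt1. Of 15 metallothionein and zinc transport genes, 6 rose and 2 fell (2 and 0 in the 9-library fit, 3 and 3 with median-ratio scaling). Slc39a14, a zinc and iron importer, fell 1.59-fold, and Slc39a13, a transporter of the same family, fell 1.4-fold. Slc39a6, also an importer, rose 1.37-fold. The exporter Slc30a1, which MTF1 is known to induce, averaged 8.84 ± 0.459 TPM with TMP269 and 6.32 ± 0.653 TPM in MGT alone, and its call (log2 difference 0.43 ± 0.11, adjusted p = 0.0211) was lost without MGT+TMP269 replicate 1 or 3 or MGT replicate 1 or 3 and under median-ratio scaling. The number of rising genes of the list was 3 without MGT+TMP269 replicate 1, MGT replicate 1 or MGT replicate 3. The fit of all 9 libraries did not call Slc30a1, Slc39a13, Slc39a14 and Slc39a6.

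Antioxidant genes that NRF2 controls rose in 15 of 25 tested cases and fell in 2 (8 and 1 in the 9-library fit, median log2 difference 0.46). Hmox1, heme oxygenase 1, had 324, 328 and 296 TPM with TMP269, against 124, 97.4 and 137 TPM in MGT alone, a 2.64-fold rise (log2 difference 1.41 ± 0.12, adjusted p = 0.000293). Nqo1, a quinone reductase, had 24.8, 25.5 and 25.1 TPM with TMP269, against 10.7, 10.4 and 7.04 TPM in MGT alone (log2 difference 1.35 ± 0.15, adjusted p = 0.000887). Mgst1, a membrane glutathione transferase, had 479.8, 494 and 432 TPM with TMP269, against 157, 157 and 149.7 TPM in MGT alone (log2 difference 1.59 ± 0.058, adjusted p = 9.12e-06). In each of these genes the groups did not overlap, and the MGT level of Nqo1 was close to its DsRed mean of 6.64 TPM. Txnrd1 and Srxn1, which restore thioredoxin and peroxiredoxin, rose 1.94-fold and 2.1-fold. Taldo1, an enzyme of the pentose phosphate pathway, had 364, 355 and 345 TPM with TMP269, against 165, 165 and 159 TPM in MGT alone (log2 difference 1.12 ± 0.039, adjusted p = 6.65e-06). The alpha-class transferase Gsta3 was among those that fell (3.71 ± 0.553 TPM with TMP269 and 7.33 ± 1.3 TPM in MGT alone, log2 difference -0.82 ± 0.16, adjusted p = 0.00926). Only 1 of the list fell without MGT+TMP269 replicate 1 or MGT replicate 2 or 3. Of 12 iron genes 2 rose and 2 fell (1 and 0 in the 9-library fit), and ferritin, the iron store, changed its makeup. Ftl1, the light chain, had 9765, 9590.1 and 9143 TPM with TMP269, against 4265, 3852 and 4373 TPM in MGT alone, a 2.28-fold rise (log2 difference 1.19 ± 0.051, adjusted p = 1.79e-05). Fth1, the heavy chain, had 2978, 3072 and 3001 TPM with TMP269, against 3797, 3381 and 3951 TPM in MGT alone, a small fall (log2 difference -0.30 ± 0.057, adjusted p = 0.00815) that the fits under quantile scaling and with 8 libraries did not call. The ratio of Ftl1 to Fth1 TPM was 3.15 ± 0.119 with TMP269 and 1.12 ± 0.0162 in MGT alone, against 1.09 ± 0.0646 in DsRed cells (SD, n = 3 each). Of the 31-base words in Ftl1 transcripts, 64.1% also occur in annotated copies such as Ftl1-ps1, which itself averaged 158 ± 29.7 TPM with TMP269 and 91 ± 7.35 TPM in MGT alone. Sharing the spread over all 9 libraries ended the call of Fth1.

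Genes of the lysosome differed between the lists. Of 28 hydrolases and membrane proteins, 13 fell and 7 rose, the rises being a share near the background. Of 19 genes of autophagy and of the MiT/TFE factors, which drive lysosome formation, 10 rose and 0 fell. In the 9-library fit 8 hydrolases and membrane proteins fell and 1 rose, and 4 genes of autophagy rose. Without DsRed replicate 2 in that fit, 4 hydrolases and membrane proteins rose. Rragd, a GTPase that couples nutrient sensing to these factors, had 28.1, 26.8 and 27.5 TPM with TMP269, against 3.79, 4.38 and 4.27 TPM in MGT alone, a 6.63-fold rise (log2 difference 2.47 ± 0.085, adjusted p = 6.65e-06). Its partner subunit Rragc rose 1.22-fold, and Flcn, folliculin, which acts on both, 1.66-fold. Sqstm1, the autophagy receptor p62 and also an NRF2 target, had 942, 953 and 908 TPM with TMP269, against 549.7, 519.6 and 508 TPM in MGT alone (log2 difference 0.83 ± 0.04, adjusted p = 2.64e-05). Gabarapl1, which coats autophagosomes, rose 1.64-fold. Of 16 subunits of the proton pump that acidifies lysosomes, 9 rose (1 in the 9-library fit) and 0 fell, led by Atp6v0b with 367, 361 and 404 TPM with TMP269, against 256, 253 and 256 TPM in MGT alone (log2 difference 0.56 ± 0.05, adjusted p = 0.000316). With median-ratio scaling 4 subunits rose and 1 fell, so the small rises of the pump depend on the scaling. On the falling side were the cathepsins Ctsh (63, 71.1 and 81.7 TPM with TMP269, against 221, 222 and 241 TPM in MGT alone, log2 difference -1.66 ± 0.10, adjusted p = 5.8e-05), Ctsz (1.52-fold) and Ctss, which macrophages express strongly (9.56-fold). Scarb2, a lysosomal membrane protein, had 156, 169 and 165 TPM with TMP269, against 95.7, 91.4 and 95 TPM in MGT alone and rose (log2 difference 0.79 ± 0.048, adjusted p = 7.02e-05). The macrophage marker sums given above moved in the same direction as the hydrolases, and their part in this result was not tested. Ctss is counted on both of these lists. The call did not hold in the 9-library fit for Flcn and Rragc.

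Stress programs outside the antioxidant genes were mixed. Of 19 genes of the integrated stress response, 4 rose, a share near the background, and 5 fell (2 and 3 in the 9-library fit). Ddit3, the factor CHOP, had 358, 337 and 310.1 TPM with TMP269, against 178, 188 and 174 TPM in MGT alone, a 1.86-fold rise (log2 difference 0.89 ± 0.061, adjusted p = 0.000112). Nupr1, a stress-induced chromatin protein, had 1442, 1526 and 1517 TPM with TMP269, against 2969, 2909 and 2840.2 TPM in MGT alone, a 1.94-fold fall (log2 difference -0.96 ± 0.032, adjusted p = 6.37e-06). Psph and Phgdh, enzymes of serine synthesis, fell 1.66-fold and 1.34-fold. The number falling was 3 without MGT+TMP269 replicate 1 or 3 or MGT replicate 2 or 3. Heat shock proteins rose in 8 of 14 cases and fell in 2 (0 and 1 in the 9-library fit), all by under 2-fold, and with median-ratio scaling 4 rose. Only 1 fell without MGT+TMP269 replicate 1 or 2 or MGT replicate 1 or 3. Dnaja1, a co-chaperone of HSP70, had 234, 245 and 228 TPM with TMP269, against 187, 176 and 186 TPM in MGT alone (log2 difference 0.36 ± 0.045, adjusted p = 0.00144), and Hspa1b, inducible HSP70, had 10.9, 10.9 and 10.2 TPM with TMP269, against 17.5, 18.1 and 18.6 TPM in MGT alone (log2 difference -0.71 ± 0.074, adjusted p = 0.000674). In the fit of all 9 libraries, Dnaja1 did not pass the threshold.

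Of 24 glycolysis genes, 9 rose and 4 fell (6 and 1 in the 9-library fit). Pgam2, the phosphoglycerate mutase of muscle, had 195, 211 and 208 TPM with TMP269, against 70.7, 68.8 and 66.8 TPM in MGT alone, a 2.97-fold rise (log2 difference 1.56 ± 0.049, adjusted p = 5.36e-06). Eno3, the muscle enolase, and Slc2a1, the GLUT1 transporter, rose 1.57-fold and 1.8-fold. Slc16a3, a lactate exporter of glycolytic cells, fell 2.43-fold. Of 17 genes of fatty acid synthesis and storage, 5 rose and 2 fell (2 and 1 in the 9-library fit). Fabp3, the fatty acid carrier of heart muscle, had 100.02, 92.2 and 92.1 TPM with TMP269, against 54.6, 47.7 and 50.6 TPM in MGT alone (log2 difference 0.88 ± 0.067, adjusted p = 0.000163). Hadh and Acadm, enzymes of beta-oxidation, rose 1.7-fold and 1.65-fold among 4 rises and 1 fall in 20 genes (2 and 0 in the 9-library fit). Oxidative phosphorylation rose in 6 of 24 cases, a share near the background, and in 0 without MGT+TMP269 replicate 1 or MGT replicate 1, in 2 without MGT+TMP269 replicate 2, in 3 without MGT replicate 3, in 1 with median-ratio scaling and in 0 in the 9-library fit. Cholesterol synthesis had 3 rises and 1 fall in 22 genes, and under either rescaling 1 rise and 4 falls, so no direction is given for it. Leaving out MGT+TMP269 replicate 1 or 2 or MGT replicate 3 left 1 rise, and 0 genes fell without any of the MGT+TMP269 libraries or without MGT replicate 1 or 2. Ribosomal proteins (2 rises and 2 falls in 25 genes) had 0 rises and 8 falls with median-ratio scaling and 5 rises and 1 fall with quantile scaling, and 1 fell without MGT replicate 3. The proteasome had 1 rise and 1 fall in 22 genes, 0 and 5 with median-ratio scaling and 3 rises with quantile scaling. The 9-library fit called 0 cholesterol, ribosomal or proteasome genes. Acadm lost the call when all 9 libraries shared the fit.

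Of 10 genes of IGF signalling, 4 fell and 1 rose (2 and 0 in the 9-library fit), and 2 rose without MGT+TMP269 replicate 2 or MGT replicate 3. Igf1, insulin-like growth factor 1, had 7.33, 4.86 and 9.83 TPM with TMP269, against 50.3, 49.9 and 69.8 TPM in MGT alone, a 7.72-fold fall (log2 difference -2.82 ± 0.24, adjusted p = 0.000268), and its abundant binding protein Igfbp7 fell 1.45-fold. Of the Wnt genes, the antagonists Dkk3 (8.05, 8.1 and 7.73 TPM with TMP269, against 28, 28 and 28.1 TPM in MGT alone, log2 difference -1.70 ± 0.068, adjusted p = 1.34e-05), Sfrp1 (3.99-fold) and Frzb (1.94-fold) fell, and 2 of 15 genes rose and 4 fell (0 rose and 5 fell with median-ratio scaling, and 0 rose in the 9-library fit). Of 11 BMP genes 3 rose and 3 fell (2 and 1 in the 9-library fit): Bmp4, a morphogen, fell 2.76-fold, and the inhibitors Smad6 and Bambi rose 1.73-fold and 2.06-fold. Among 14 immediate early and AP-1 genes, 6 rose (3 with median-ratio scaling or in the 9-library fit) and 1 fell, with Jund at 264, 231 and 236 TPM with TMP269, against 155, 148 and 149 TPM in MGT alone (log2 difference 0.69 ± 0.059, adjusted p = 0.000277), Myc at 23.5 ± 3.8 TPM with TMP269 and 13.7 ± 0.634 TPM in MGT alone and Junb at 68.5 ± 6.47 TPM with TMP269 and 48.7 ± 3.69 TPM in MGT alone. Notch2 rose among 8 Notch genes (log2 difference 0.48 ± 0.076, adjusted p = 0.00381), and so did the ligand Jag1 (log2 difference 0.47 ± 0.11, adjusted p = 0.018), whose call was lost without MGT+TMP269 replicate 3 or MGT replicate 2 or 3, and 1 Notch gene fell without MGT+TMP269 replicate 2 or with median-ratio scaling. With all 9 libraries in the fit, the adjusted p was not under 0.05 for Jag1 and Notch2.

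Markers of other cell types that a fibroblast culture could hold differed in level between the types. The sums of epicardial and mesothelial markers were 602 to 636 TPM with TMP269 and 472 to 492 TPM in MGT alone. Those of chondrocyte and bone markers were 65.4 to 68.2 TPM with TMP269 and 193 to 216 TPM in MGT alone. Summed over 7 Schwann and neural crest markers, TPM was 1.13 to 1.51 with TMP269 and 1.73 to 1.9 in MGT alone, and 0 were tested. Among 12 endothelial markers the sums were 23.3 to 24.3 with TMP269 and 24.9 to 34.3 in MGT alone, and the defining Cdh5 and Kdr averaged under 1 TPM. Of 6 tested, 1 rose and 1 fell (0 in the 9-library fit, and 2 fell without MGT+TMP269 replicate 1 or MGT replicate 2 or with median-ratio scaling, while 2 rose with quantile scaling). Pecam1 had 1.03, 1.53 and 1.86 TPM with TMP269, against 2.53, 2.44 and 3.36 TPM in MGT alone and was not called (log2 difference -0.62 ± 0.20, adjusted p = 0.0515), although a pseudocount of 5, median-ratio scaling and the fit of 8 libraries each called it lower. Of 5 tested pericyte markers 3 fell, with Mcam at 52, 41.7 and 43.8 TPM with TMP269, against 119, 119 and 123 TPM in MGT alone (log2 difference -1.38 ± 0.085, adjusted p = 7.11e-05), and the sums were 66.1 to 76.8 with TMP269 and 159.9 to 167 in MGT alone. The defining pericyte channel genes Kcnj8 and Abcc9 were below 0.2 TPM in these libraries. Epicardial and mesothelial markers went up in 5 of 10 cases and down in 1 (2 and 0 in the 9-library fit), with Upk1b at 187, 177 and 185 TPM with TMP269, against 87.3, 90.1 and 84.4 TPM in MGT alone (log2 difference 1.06 ± 0.046, adjusted p = 1.84e-05), Wt1, the epicardial zinc finger factor, at 14.5 ± 0.395 TPM with TMP269 and 8.31 ± 0.842 TPM in MGT alone, and Msln, mesothelin, not called (249.6 ± 9.38 TPM with TMP269 and 241 ± 5.54 TPM in MGT alone). Chondrocyte and bone markers fell in 3 of 7 cases and rose in 0 (in 1 without MGT replicate 1), namely Acan, Col10a1 (51.5, 51 and 50.4 TPM with TMP269, against 149.6, 129 and 136 TPM in MGT alone, log2 difference -1.42 ± 0.062, adjusted p = 1.94e-05) and Sox9 (3.6-fold). Col10a1, a collagen of hypertrophic cartilage, had a DsRed mean of 0.86 TPM. Of 3 tested adipocyte markers, 1 rose and 2 fell (1 and 1 in the 9-library fit), with a median log2 difference of -0.90. The 1 that rose was Pparg, the adipocyte master regulator (2.32-fold). Adipoq, the defining adipocyte hormone, was listed at 0 in 5 of the 6 libraries. The fit of all 9 libraries did not call Wt1.

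Several of the 12 largest rises belonged to none of the lists. Bex2, a small protein of neurons and neuroendocrine cells, had 33.1, 26.5 and 23.7 TPM with TMP269, against 0.314, 1.03 and 0.326 TPM in MGT alone (log2 difference 4.23 ± 0.21, adjusted p = 3.27e-05). Mlana, melan-A of the pigment cell lineage, had 63.2, 58.8 and 69.1 TPM with TMP269, against 11.2, 13.6 and 13.1 TPM in MGT alone, a 5.04-fold rise (log2 difference 2.25 ± 0.10, adjusted p = 1.74e-05). Tbc1d4, the Rab regulator that releases GLUT4 vesicles on insulin signalling, had 19.8, 22 and 24.3 TPM with TMP269, against 4.28, 3.84 and 4.72 TPM in MGT alone, a 5.16-fold rise (log2 difference 2.13 ± 0.11, adjusted p = 4.07e-05). Tbc1d4 and the transporter gene Slc2a4 thus rose in the same libraries. Mbd1, which binds methylated DNA, had 130.3, 118 and 116 TPM with TMP269, against 26.9, 25.3 and 23.3 TPM in MGT alone (log2 difference 2.22 ± 0.075, adjusted p = 6.37e-06). Its DsRed libraries had 131, 78.3 and 153 TPM, so the low value was that of MGT alone. Serpinb6c, a protease inhibitor of the ovalbumin family, had 11.5, 11.9 and 13.3 TPM with TMP269, against 1.29, 0.263 and 0.589 TPM in MGT alone (log2 difference 2.99 ± 0.23, adjusted p = 0.000166). Part of the sequence of Bex2 (35.5% of its 31-base words) and of Serpinb6c (22.9%) is shared with family members, so their levels are estimates in part.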

How the data were processed

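The deposited table holds TPM per gene symbol, made by the authors; the submitters' processing notes name kallisto, DESeq2 and the build mm9 without roles or versions. Per the labels' protocols, libraries came from total RNA with a directional kit. TPM keeps no read depth, so depth is unknown and no counting interval is given; in the 6 libraries the values summed to 988020 to 988857 TPM. The 25 rows named by a date were left out of tests. The 6 libraries were grouped by treatment and fitted with limma 3.58.1 in R 4.3.3 on log2(TPM + 1) over genes with a mean of at least 1 TPM, with an intensity-dependent variance trend, 4 residual degrees of freedom and Benjamini-Hochberg adjustment over all genes tested; the script was tested on simulated data. Alternatives were other pseudocounts, filters and scalings, all 9 libraries, a replicate block and leaving out each library; the fit of 8 libraries without DsRed replicate 2 was chosen after seeing the data. The 59 gene lists and the comparison were chosen with earlier results of these data known. Named genes are the 12 largest rises and falls among called genes with at least 10 TPM in the higher group and no overlap, and up to 6 called members of a list per direction with the smallest adjusted p; others are named for a list's account, and their values were known when they were named. Promoters are RefSeq's, and 31-base words were counted in GENCODE transcripts. Both carry GRCm38 coordinates, which differ from mm9. Genes that share sequence, or overlap on the other strand, are uncertain in part. Some genes are not analysed here.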

Additional observations from a re-analysis of the deposited data

How the results depend on the processing

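Called genes numbered 4511, and 4520 and 4499 with pseudocounts of 0.1 and 5, 3927 with no filter and 3983 with a mean of at least 5 TPM. Median-ratio scaling gave 3761 (1661 higher, 2100 lower) and quantile scaling 3927. With all 9 libraries in the fit 1267 genes passed (463 higher, 804 lower), all of them among the 4511, and 4077 without DsRed replicate 2. Leaving out each replicate gave 3466 to 3667 calls (2103 to 2230 higher, 1355 to 1486 lower). Library numbers did not pair the samples (r from -0.0022 to 0.043 for equal numbers); a replicate block gave 3688 calls (2233 higher, 1455 lower).

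For 20 lists recomputed under every alternative, counts that moved by over 1.5 times are given here, and the cause was not tested. The counts of the other lists were recomputed with all 9 libraries, both rescalings and each library left out, and stand with their results. With all 9 libraries, 3 cardiac regulators were higher, 0 thick filament and 2 thin filament genes lower, 3 Z-disc genes higher and 2 lower, 3 calcium cycling genes higher and 1 lower, 0 collagens higher, 8 fibroblast genes lower, 0 myofibroblast genes and 1 interleukin gene higher, 0 replication genes and 1 mitosis gene lower, 2 integrated stress genes higher and 3 lower, 2 metallothionein and zinc genes higher and 0 lower, 8 NRF2 genes higher and 1 lower, 1 lysosomal gene higher and 8 lower, and 0 cholesterol genes called. Median-ratio scaling left 2 cardiac regulators, 3 thick filament and 5 replication genes lower, 3 metallothionein and zinc and 4 lysosomal genes higher, and 1 cholesterol gene higher and 4 lower. Quantile scaling left 2 cardiac regulators and 3 thick filament genes lower and the same cholesterol counts, 1 and 4. Requiring 5 TPM left 2 MEF2-responsive, 7 interleukin, 1 replication, 1 mitosis and 1 NRF2 gene lower and 1 fast muscle gene higher, with fewer genes tested. With no filter 8 fast muscle genes were lower. The replicate block left 1 fast muscle, 3 metallothionein and zinc and 1 cholesterol gene higher and 4 mitosis genes lower. Without DsRed replicate 2, 3 Z-disc genes were lower and 4 lysosomal genes higher.

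Leaving out 1 library at a time gave ranges of 1 to 3 MEF2-responsive genes higher, 5 to 7 cardiac regulators higher and 1 to 2 lower, 3 to 5 Z-disc genes lower, 1 to 2 fast muscle genes higher, 3 to 6 mitosis genes lower, 3 to 5 integrated stress genes lower, 3 to 5 metallothionein and zinc genes higher, 1 to 2 NRF2 genes lower, and 1 to 3 cholesterol genes higher and 0 to 1 lower. For 238 named genes, 3458 of 3552 values under the alternatives kept their direction and side of the threshold, 82 lost the call, 12 gained one and 0 called values changed direction. Depth is unknown, so it sets no limit that can be given.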
